A study of Mus musculus with 6 samples.

Results

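MafA target genes were defined here as protein-coding genes with at least 1 MafA region in the gene or within 10 kb of either end. A MafA region is the union of peaks that overlap by at least 1 bp between 2 replicate peak lists, with a peak from each. Of 25894 such regions on chromosomes 1 to 19 and X, 17933 (69.3%, 95% Wilson interval 68.7 to 69.8%) were assigned to a gene. They fell at 9639 of 21631 protein-coding genes, or 44.6% (43.9 to 45.2%).

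The peak lists came from CUT&RUN with an antibody to endogenous MafA in MIN6 cells, a beta cell line derived from a mouse insulinoma. In CUT&RUN an antibody directs a nuclease to its target in permeabilised cells, and the released DNA is sequenced. The series has 6 libraries in 3 groups of 2 replicates (MafA, H3K4me3 as positive control, IgG as negative control), with no genotype or treatment named beyond the antibody. Only the 2 MafA lists were used, and the IgG libraries were not analysed here. Nothing in the labels says that the replicates came from separate cultures, so the spread between them may be technical. With 1 group there is no comparison between conditions and no test. Genes are therefore described by their counts, beside the same counts over all genes and in each replicate.

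MafA is a basic leucine zipper transcription factor of the large MAF family, found in the pancreas mainly in mature beta cells. It binds DNA as a dimer at MAF recognition elements, palindromes whose arms read TGCTGA and, on the same strand at the other end, TCAGCA. It is known for driving the insulin genes and genes of glucose sensing, and its loss impairs glucose-stimulated insulin secretion.

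The replicate lists held 33013 and 42747 peaks, with a median width of 556 and 651 bp. Fold enrichment, the authors' ratio of the fragment pileup at the summit to the local background, had a median of 5.03 and 4.82. The whole number of fragments at the summit, recovered from the deposited values for 91.3% and 92.6% of peaks, had a median of 24 and 46. Replicate 2 was thus the deeper list at its summits, and 59.2% of genes had a peak in it, against 48.9% in replicate 1. A gene without a region can hold weaker binding that was not detectable at this depth.

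Promoter sequences of 6 genes are shown because a MafA region overlapped each of them and because they differ in whether they hold a MAF half-site. Each is the 250 bases upstream of a RefSeq transcript start (GRCm38.p6), written 5′ to 3′ on the gene's strand. Capitals mark TGCTGA or its reverse complement TCAGCA, and the related AP-1-like heptamer TGACTCA. The windows lie at chr2:69219699-69219948 for G6pc2 (plus strand), chr6:28480098-28480347 for Snd1 (plus), chr8:94172368-94172617 for Mt2 (plus), chr3:52105007-52105256 for Maml3 (minus), chr3:28697653-28697902 for Slc2a2 (plus) and chr19:52264047-52264296 for Ins1 (plus).
G6pc2: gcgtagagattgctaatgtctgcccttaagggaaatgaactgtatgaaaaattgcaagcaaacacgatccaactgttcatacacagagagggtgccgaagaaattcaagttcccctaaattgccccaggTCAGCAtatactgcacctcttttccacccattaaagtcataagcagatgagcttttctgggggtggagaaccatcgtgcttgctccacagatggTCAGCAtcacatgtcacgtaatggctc
Snd1: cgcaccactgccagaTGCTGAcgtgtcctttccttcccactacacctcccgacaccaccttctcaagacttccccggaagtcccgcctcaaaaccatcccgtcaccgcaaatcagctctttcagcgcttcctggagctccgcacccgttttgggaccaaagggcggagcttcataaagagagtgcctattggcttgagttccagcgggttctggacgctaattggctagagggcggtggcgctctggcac
Mt2: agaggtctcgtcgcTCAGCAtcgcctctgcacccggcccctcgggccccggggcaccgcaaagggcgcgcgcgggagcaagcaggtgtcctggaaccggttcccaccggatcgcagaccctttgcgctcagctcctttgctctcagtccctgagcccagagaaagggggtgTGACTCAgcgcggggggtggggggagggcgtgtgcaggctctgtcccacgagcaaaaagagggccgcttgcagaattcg
Maml3: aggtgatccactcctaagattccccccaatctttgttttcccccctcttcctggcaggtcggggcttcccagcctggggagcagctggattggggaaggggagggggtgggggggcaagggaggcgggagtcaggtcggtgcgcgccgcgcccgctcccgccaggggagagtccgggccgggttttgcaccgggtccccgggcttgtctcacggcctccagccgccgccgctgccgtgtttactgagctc
Slc2a2: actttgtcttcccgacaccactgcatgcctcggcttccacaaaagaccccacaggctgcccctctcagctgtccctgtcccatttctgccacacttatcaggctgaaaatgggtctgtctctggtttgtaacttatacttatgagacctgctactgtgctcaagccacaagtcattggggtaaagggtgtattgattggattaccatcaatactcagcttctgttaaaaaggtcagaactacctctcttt
Ins1: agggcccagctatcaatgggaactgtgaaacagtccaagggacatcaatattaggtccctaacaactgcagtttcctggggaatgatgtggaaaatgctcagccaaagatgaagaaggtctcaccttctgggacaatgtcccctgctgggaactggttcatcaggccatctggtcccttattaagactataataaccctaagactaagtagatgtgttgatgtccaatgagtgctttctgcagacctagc

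The G6pc2 window holds 2 half-sites, which begin 121 and 27 bases before the start. Its region had a fold enrichment of 11.3 in replicate 1 and 10.3 in replicate 2. Snd1 and Mt2 each hold 1 half-site, and Mt2 also holds 1 heptamer, with fold enrichments of 7.25 and 7.58 at Snd1 and 6.27 and 5.46 at Mt2. No half-site or heptamer is in the windows of Maml3, Slc2a2 and Ins1. The Maml3 window held the summits of both replicates and the Mt2 window that of replicate 2, while at the other 4 genes both summits lay outside the printed bases. At Ins1 the summits were 405 and 392 bases after the first printed base, past the window's end. The sequence there was not read, so sites at these summits are not covered. The regions at Slc2a2 and Ins1 were wide, 5346 and 3351 bp.

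Over RefSeq promoter windows the half-site TGCTGA was about as frequent with a MafA region as without, while longer forms of it were more frequent with one. Sequence outside these windows was not searched. Of 21045 RefSeq promoter windows (250 bases before to 50 after the start, 17274 genes, 79.9% of all), 3514 or 16.7% overlapped a region. TGCTGA on either strand was in 18.1% of all windows, in 18.7% of those that overlapped a region (17.4 to 19.99%) and in 3155 of the 17531 that did not. Among the 578 windows that held both summits it was in 23.2% (19.9 to 26.8%). The longer TGCTGAC was in 4.35% of all windows, 5.89% of overlapping ones (5.16 to 6.72%) and 4.04% of the others (3.76 to 4.34%). TGACTCA was in a lower share of the windows with a region, 3.47% (2.92 to 4.13%), than of those without, 4.93% (4.62 to 5.26%). Intervals cover counting error only, and windows of 1 gene can share bases.

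MafA regions were spread unevenly over genes. No region was assigned to 11992 genes, 1 to 5006 genes, 2 to 4 to 3714 and 5 or more to 919. Of these, 239 genes had at least 10 and 23 at least 20, with a highest number of 32 at Pde4d. The mean was 1.02 ± 2.01 regions (SD over genes). Most regions lay inside genes: 15250 (58.9% of all) overlapped a gene body, and 6931 genes (32.0%) had one there. The 10 kb edge passed through an even slope, since 202 genes had their nearest region 9 to 10 kb away and 207 had it 10 to 11 kb away. Of assigned regions, 3175 (17.7%) counted for more than 1 gene, up to 25 genes for 1 region, so neighbouring genes share part of their numbers.

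Longer genes had more regions. In the shortest 10% of genes (median length 0.948 kb) the mean was 0.171 regions and 11.5% had any. In the longest 10% (median 188 kb) the mean was 3.89 and 79.4% had any, and these genes held 38.2% of all gene-region pairs. Spearman's rank correlation of regions with window length was 0.42 across the 21631 genes, which are not independent. A gene's number was therefore read against the number expected for its window, the body plus 10 kb either side. The expected number is the window length times the regions per base over the 200 genes on each side of it in length order. More regions than expected were found at 7828 genes (36.2%). Spearman's correlation of the observed over expected number with window length was 0.22, so some relation to length remained. Genes with at least 5 regions and at least 3 times the expected number are called MafA-rich, and genes with no region where at least 3 were expected MafA-poor.

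**Figure D1:**
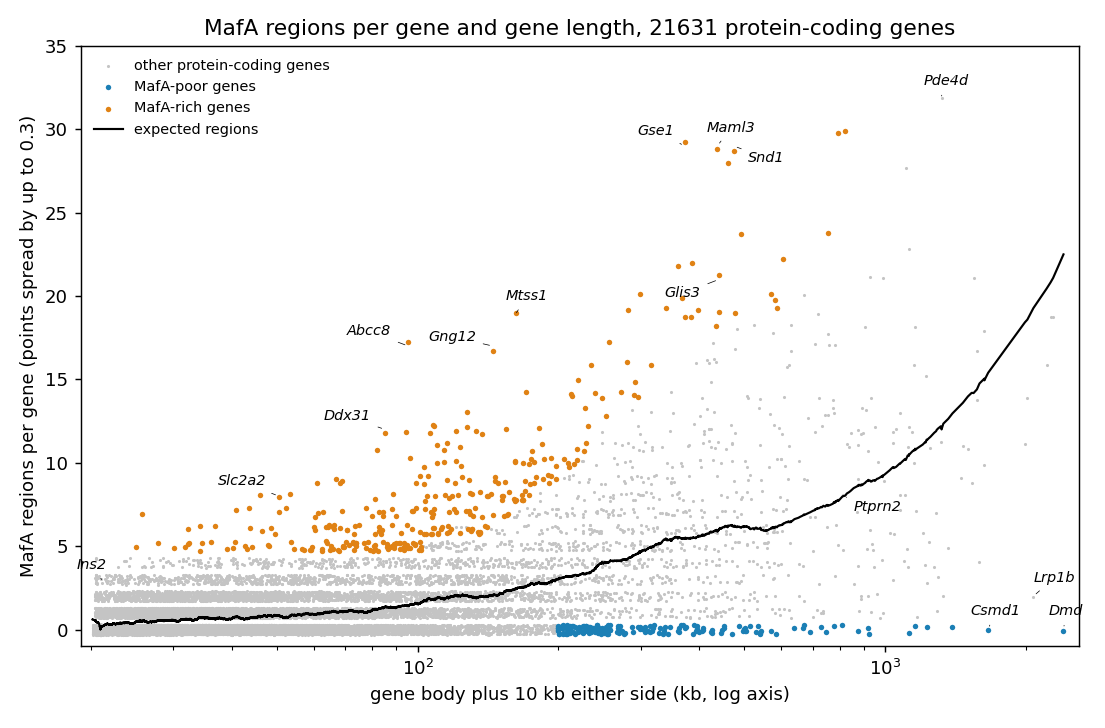
Each point is 1 of 21631 protein-coding genes, with the length of its body plus 10 kb either side (kb, log axis) against its number of MafA regions (spread by up to 0.3 so that points show). The black line is the expected number, orange points are MafA-rich genes and blue points MafA-poor genes. Abcc8 (17 regions, 1.41 expected) stands far above genes of its length, and Dmd (0 regions, 22.5 expected) far below.

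The MafA-rich genes numbered 320, or 1.48% of genes, at 306 separate loci. They held 15.3% of the assigned regions (2740) in 3.06% of the summed window length, a concentration that follows from how they were chosen. Their median was 7 regions, 4.24 times expected (range 3.0 to 14.4), in genes of median length 87.3 kb, against 17.3 kb for all genes. The criterion of at least 5 regions favours long genes. Of the 320, 118 were in the longest 10% of genes, 117 in the next 10% and none in the shortest. From each replicate's own peaks and expected numbers, 432 (2.0%) and 507 (2.34%) genes met the same criteria in replicates 1 and 2. Of the 320, 268 met them in replicate 1, 219 in replicate 2 and 204 in both. The boundary was not a gap: 21 genes with at least 5 regions had 3 to 3.1 times the expected number and 20 had 2.9 to 3 times. Chd7 (9 regions, 2.999 expected) was just inside, and Car10 (18 regions, 6.01 expected) just outside.

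Regions of MafA-rich genes lay closer together, as the choice of genes with many regions for their length entails, and were somewhat stronger. The median gap between neighbouring regions was 7.54 kb at MafA-rich genes and 15.7 kb at the other genes with 2 or more. The typical fold enrichment (median) reached 5.67 and 6.13 in the replicates, where other assigned regions had 5.27 and 5.67. Regions assigned to no gene had 5.86 and 6.47, with fewer fragments. Median fragments at the summit were 33 and 68 at MafA-rich genes, 31 and 66 at the others and 25 and 53 away from genes, and the median widths were 1039, 890 and 938 bp. Of the regions at MafA-rich genes, 13.2% were in the top 10% of all regions by fold enrichment, against 8.35% of other assigned regions and 12.1% of those assigned to no gene.

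Abcc8 had the highest excess of regions over expectation of all genes (observed minus expected, over the square root of expected). It encodes SUR1, the sulfonylurea receptor subunit of the KATP channel that couples glucose metabolism to membrane potential in beta cells. Its window (gene at chr7:46104523-46180039) held 19 peaks in replicate 1 and 20 in replicate 2, where 1.77 and 2.44 were expected. These made 17 regions against 1.41 expected, 12.1 times, with 15 in the gene body. By their own peaks the replicates had 10.7 and 8.18 times their expected numbers, and high numbers in both follow since each region needs a peak from each. The strongest region, chr7:46155215-46156623 in the gene body, had fold enrichments of 16.1 and 18.1 with 71 and 149 fragments at the summit. The weakest, chr7:46187804-46188310, lay 7765 bp outside the gene at 2.21 and 2.06. Fold enrichment was over 10 in both replicates at 6 of the 17. Kcnj11, the neighbouring gene for the pore subunit Kir6.2 of the same channel, had 1 region, and Abcc8's window shared it.

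Genes of glucose entry and glucose 6-phosphate turnover also had many regions. Slc2a2 encodes GLUT2, the main glucose transporter of rodent beta cells. It had 10 peaks in each replicate and 8 regions against 0.83 expected, 9.58 times. The strongest of them, chr3:28735946-28738271, lay 7585 bp beyond the gene, with fold enrichments of 22.7 and 22.5 and 179 and 344 fragments. G6pc2, an islet glucose-6-phosphatase that opposes glucose phosphorylation, had 8 and 7 peaks and 6 regions against 0.62 expected. Both genes were MafA-rich. At G6pc2, 4 of the regions were also in the window of another gene.

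Among the ion channels that follow in this pathway, the numbers differed from gene to gene. Cacna1c, an L-type calcium channel of the beta cell, had 20 and 28 peaks and 17 regions against 6.47 expected, which is 2.63 times and under the threshold for MafA-rich. Its relative Cacna1d had 7 and 5 peaks and 4 regions against 6.24, fewer than expected. Trpm5, a cation channel opened by calcium, was MafA-rich with 6 and 7 peaks and 5 regions against 0.64. Of these regions, 3 were also in another gene's window. The L-type genes thus lay on opposite sides of the expected number in these lists.

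The hormone genes had 1 to 3 regions each, at least 1 of them strong. Ins1 had 1 and 3 peaks and 2 regions against 0.43 expected, since the replicate 1 peak of its second region ended just outside the window. Its stronger region, at chr19:52251274-52254358 and 9939 bp from the gene, had fold enrichments of 29.4 and 44.0, and the one over the gene had 8.94 and 10.8. Ins2 had 4 peaks in each replicate and 3 regions against 0.16, and the region over the gene had 14.9 and 20.8, while the other 2 had at most 4.61. Iapp, for amylin, had 5 peaks in each and 3 regions against 0.53, and Ucn3, a maturity marker, had 1 region of 10.1 and 12.6. Each of these 4 genes had more regions than expected, and none was MafA-rich. All regions of Ins2, Iapp and Ucn3 were also in another gene's window. Of the genes next to Ins2 in length, 49% were olfactory or vomeronasal receptor genes, which seldom had a region, so few were expected.

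Genes of the secretory granule spanned the whole range. Chga (chromogranin A) had 7 and 6 peaks and 5 regions against 0.54 expected, Cpe (carboxypeptidase E) 11 and 12 peaks and 10 regions against 2.05, and Pcsk2 (prohormone convertase 2) 16 and 29 peaks and 14 regions against 4.44. All of these were MafA-rich, though by its own peaks replicate 1 had only 2.86 times the expected number at Pcsk2. Slc30a8, the granule zinc transporter, had 4 peaks in each replicate and 2 regions against 0.92, with fold enrichments of 14.6 and 18.1 at the stronger. Ptprn2 (phogrin) had 13 and 23 peaks but 8 regions against 8.0, the number for its length. No region was assigned to Chgb, with 1 peak in each replicate that did not overlap, or to Pcsk1, with 0 and 2 peaks.

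Of the exocytosis machinery, Syt7 (10 and 11 peaks, 7 regions against 1.29) and Snap25 (6 and 7 peaks, 5 regions against 1.31) were MafA-rich. Syt7 is a calcium sensor for granule fusion and Snap25 a SNARE protein. Vamp2, Rapgef4 and Sytl4 had 2 to 8 regions, at 1.75 to 4.85 times expected. The incretin and fatty acid receptors Gipr, Ffar1 and Glp1r had 3, 2 and 1 regions against 0.72, 0.14 and 0.87. All regions of Gipr and Ffar1 were also in another gene's window. Of the genes next to Ffar1 in length, 52% were olfactory or vomeronasal receptor genes, so few regions were expected there. In all, 27 of the 29 genes listed for insulin secretion had a region (44.6% of all genes), 26 more than expected (36.2%) and 10 were MafA-rich (1.48%). The 29 genes held 145 regions, 2.96 times expected (2.98 and 2.83 by the replicates' own peaks).

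**Figure D2:**
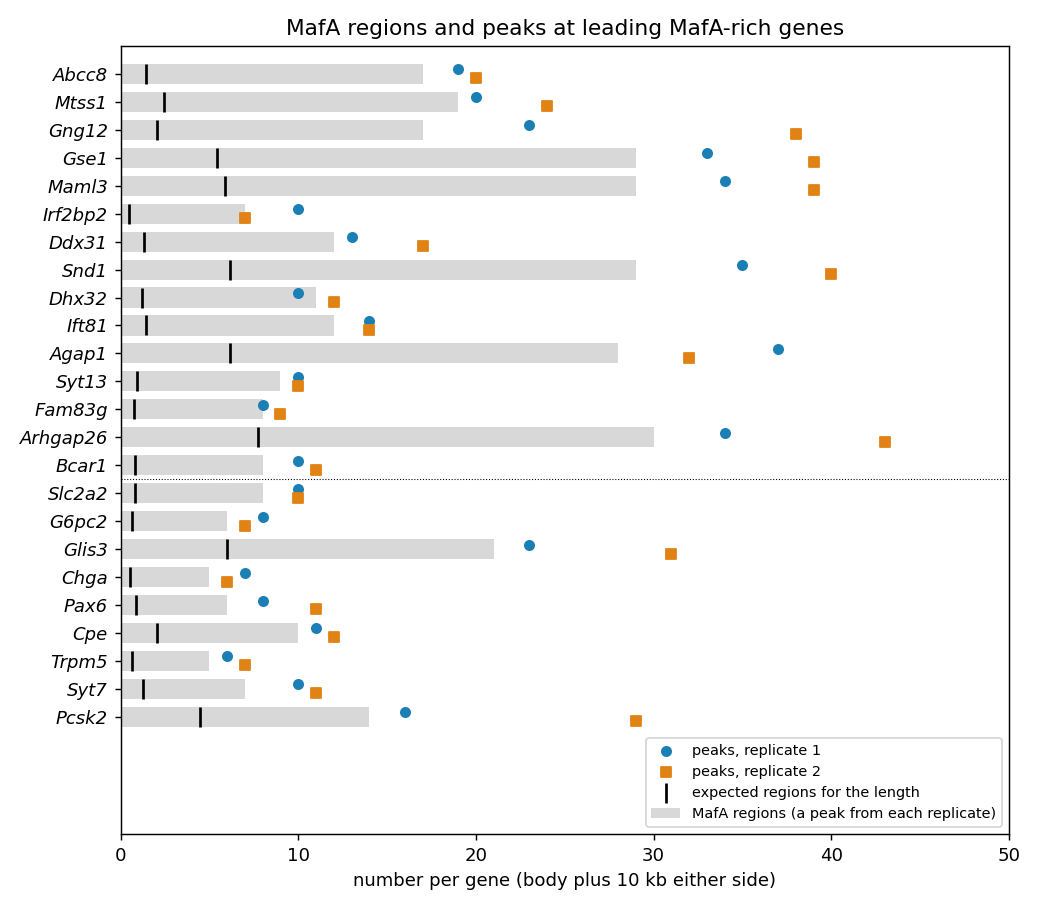
Grey bars give the MafA regions of 24 MafA-rich genes, blue circles and orange squares the peaks of replicates 1 and 2, and black ticks the expected regions. The 15 genes above the dotted line are the MafA-rich genes among the 20 with the highest excess, in that order, and the 9 below are beta cell genes from the lists. Every bar passes its tick by at least 3 times.

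Beta cell transcription factor genes carried regions at 13 of 16, against 44.6% of all genes. Glis3, a factor of beta cell development and insulin gene expression, had 23 and 31 peaks and 21 regions against 6.00 expected, and Pax6 had 8 and 11 peaks and 6 regions against 0.85, of which 4 were also near another gene. Both were MafA-rich, though by its own peaks replicate 1 had 2.99 times the expected number at Glis3, under the threshold. The regions of Glis3 were weak, with a median fold enrichment of 2.95 and 3.16, though they rested on 58 and 137 fragments. Pdx1, a regulator of the insulin genes, had 6 peaks in each replicate and 3 regions against 0.51, and the region over its lower-coordinate end had 18.2 and 25.0. Mafa itself had 3 and 5 peaks and 2 regions, both outside the gene, at 3374 and 7366 bp from it.

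Most of the other factors had 1 or 2 regions each: Neurod1, Isl1, Nkx2-2, Pax4 and Rfx6 had 2, and Nkx6-1, Mnx1 and Foxa2 had 1. The Mnx1 region, 5283 bp from the gene, was among the strong ones at 19.7 and 24.7. Insm1, Foxa1 and Hnf4a had none, with 0 and 3, 1 and 0, and 0 and 2 peaks. Summed over the 16 genes there were 49 regions, 3.25 times expected (3.26 and 3.22 by replicate).

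Of 14 genes tied to MafA in earlier work, 13 had a region and 12 more than expected. Beyond those given above, pyruvate carboxylase (Pcx) had 5 regions against 1.92 expected, cyclin D2 (Ccnd2) 4 against 0.85 and the prolactin receptor (Prlr) 2 against 2.86. Only Pcsk1 had none. The group had 3.39 times the expected regions, 3.61 and 2.86 by replicate. The 3 lists together hold 48 genes, since some are on more than 1. Of these, 43 (89.6%, against 44.6% of all genes) had a region, 41 more than expected (36.2% of all genes) and 12, or 25.0%, were MafA-rich (1.48% of all genes). None was MafA-poor, but only a gene with at least 3 regions expected can be, and most of the 48 had fewer expected. Over all genes with at least 3 expected, 16% were MafA-poor. The median of the 48 was 3.27 times expected. Of the 14 alternatives, Abcc8, Slc2a2 and Cpe were MafA-rich in all, Syt7 in 13, Glis3 in 11, G6pc2 in 10, Pax6 and Snap25 in 9, Pcsk2 in 8, and Chga and Trpm5 in 7. These genes were listed for what is known of MafA and of beta cells, with earlier results of these data known, so their counts describe them and test nothing.

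Most genes at the head of the ranking were not on those lists. Mtss1, an actin and membrane-bending scaffold, had 20 and 24 peaks and 19 regions against 2.42 expected. Gng12, a G protein gamma subunit, had 23 and 38 peaks and 17 regions against 2.03. The difference of 15 peaks was the largest between the replicates among the 20 leading genes. Gse1, a subunit of histone deacetylase complexes, had 33 and 39 peaks and 29 regions against 5.44. Maml3, a Notch coactivator of the Mastermind family, had 34 and 39 peaks and 29 regions against 5.87.

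Snd1, an RNA-binding nuclease, had 35 and 40 peaks and 29 regions against 6.17, all in its gene body. Agap1, an Arf GTPase-activating protein, had 37 and 32 peaks and 28 regions against 6.13. Arhgap26, a GTPase-activating protein, had 34 and 43 peaks and 30 regions against 7.71. At these 5 genes, from Gse1 to Arhgap26, the replicates differed by 5 to 9 peaks.

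Smaller genes reached as high an excess with fewer regions. Irf2bp2, a transcriptional corepressor, had 10 and 7 peaks and 7 regions against 0.49 expected, 14.4 times, the highest ratio of any MafA-rich gene. The helicase genes Ddx31 and Dhx32 had 12 regions against 1.34 and 11 against 1.2, and the ciliary transport gene Ift81 12 against 1.42. At Dhx32, 9 of the 11 regions were also within 10 kb of another gene. Syt13, an atypical synaptotagmin found in endocrine cells, had 10 peaks in each replicate and 9 regions against 0.93, all within its body. Bcar1, an adhesion scaffold, had 8 against 0.80, and Fam83g 8 against 0.75. All 8 regions of Fam83g were also in another gene's window.

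The remaining 5 of the 20 leading genes were short and had few regions. They were Mt2 (a metallothionein, 2 regions against 0.03 expected), Tmem256 (3 against 0.12), 1700042G07Rik and Olfr311 (2 against 0.04 each) and Olfr1416 (1 against 0.02). Their expected number was under 0.2 because between 58% and 94.5% of the genes next to them in length were olfactory or vomeronasal receptor genes, which seldom had a region. All 10 regions of these 5 genes were also in another gene's window, and none of the genes was MafA-rich.

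Further MafA-rich genes, chosen for mention after their values were seen, take part in secretion and metabolism. Scg3, a granin of the secretory granule, had 7 regions against 0.96 expected, and Gpr142, an amino acid receptor of islets, 5 against 0.54. The calcium pump gene Atp2a2 (SERCA2) had 9 against 1.06, the islet protease gene Bace2 12 against 1.82 and the clock gene Cry2 7 against 0.83. The metabolic genes Eno1, Pkm, Idh2 and Vdac1 had 5 or 6 regions each, at 7.41 to 9.95 times expected.

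By plain number the ranking followed length more. Pde4d, a cAMP phosphodiesterase, had 41 and 49 peaks and 32 regions, 2.67 times the 12.0 expected. Camta1 and Arhgap26 had 30 each and Asic2 28, at 3.74, 3.89 and 2.75 times expected. Iqschfp, a read-through gene with 24 regions, shared every one of them with another gene. When each region counted only for its nearest gene, it had 0.139 times the expected number.

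At the other end, 183 of the 1145 genes with at least 3 regions expected had none (16%). All 183 were in the longest 10% of genes, where the criterion places them, since expected numbers grow with window length. Of these, 101 had no peak in either replicate. Dystrophin (Dmd), the gene for a muscle membrane scaffold, had 0 regions and no peak in either list against 22.5 expected. Csmd1, a complement control gene of the brain, had none of 15.4 and Il1rapl1, a synaptic receptor, none of 13.0. Lrp1b, a lipoprotein receptor relative, had 4 and 6 peaks and 2 regions against 19.3. Nkain2, Galntl6, Frmpd4 and Cntnap5a had neither region nor peak, Tenm1 had 1 and 2 peaks and no region, and Cntn5 had 1 region against 12.0. Cntn5 and Cntnap5a belong to the group of 39 neural cell adhesion genes. As a group these had 0.918 times the expected number (0.966 and 0.907 by replicate) with a region at 29, and Dscam among them was MafA-rich with 22 regions against 6.28.

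MafA-poor genes were frequent on the X chromosome. There 27 of 51 genes with at least 3 expected (52.9%) had none, against 16% over all chromosomes. The X genes together had 0.392 times the expected regions, 0.383 and 0.398 by replicate, and 24.5% had a region. The next lowest was chromosome 14 at 0.819, and chromosome 19 was highest at 1.35 (1.31 and 1.32). The X value thus stood well apart from the autosomes in both lists, and its origin was not tested. Some X genes were MafA-rich all the same, 3 in number, among them the copper transporter gene Atp7a with 12 regions against 2.01.

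Gene families were set beside each other in the same way, in 47 groups. Besides the 3 beta cell lists, only 3 groups had at least 1.5 times the expected number: histones, synaptotagmins and cytosolic ribosomal proteins. Of 95 histone genes, 66 had a region (3.19 times expected), but their windows overlap in clusters and the 147 gene-region pairs are 48 distinct regions. The leading members of the histone and ribosomal protein groups, H3c6 and Rps21, are short. Of the genes next to them in length, 56% and 50% were olfactory or vomeronasal receptor genes, so few regions were expected there. Of 17 synaptotagmins, 12 had a region, led by the atypical Syt13, at 1.91 times (1.91 and 1.54 by replicate). Cytosolic ribosomal protein genes had 1.52 times expected at 39 of 85 genes, forkhead factors 1.47 at 19 of 44 and phosphodiesterases 1.41 at 20 of 22. The share of genes with a region, 45.9% for ribosomal proteins and 43.2% for forkhead factors, was thus near the 44.6% of all genes. Without Pde4d the phosphodiesterases had 1.16 times the expected number. In the forkhead group the gene furthest above expectation was Foxn3, with 16 regions against 5.48.

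Lists of genes of other cell types differed among themselves, beside 44.6% of all genes with a region. Of 10 acinar genes only Cela1 had a region (0.181 times expected for the list), of 12 skeletal muscle genes 2 (0.361), of 12 blood and immune genes 3 (0.496) and of 12 liver genes 5 (0.742). Of 8 genes of other islet cells 4 had 1 region each (1.05), Sst among them. The liver and other islet lists, with 41.7% and 50% of genes, were thus near the share of all genes. The direction of the liver list turned in 3 of 14 alternatives (up to 1.29, with the gene body only), and that of the acinar list with 50 kb either side (1.12), and the list of other islet cells ranged from 0.730 to 2.58. The muscle and the blood lists stayed below 1 in all 14. Peak lists hold no expression, so the label of the line could be checked only through these gene lists.

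Receptor families of sensory neurons and epithelial defence genes had next to none. Of 1110 olfactory receptor genes 27 had a region (0.229 times expected), of 353 vomeronasal receptor genes 5 (0.0562) and of 70 defensin genes 2 (0.0965). The genes next to olfactory receptor genes in length were often such receptors themselves, so few regions were expected there. Their ratio ranged from 0.0241 to 0.361 over the 14 alternatives. Some developmental factor families were also low, unlike the forkhead factors at 1.47. None of 39 HOX genes, which lie at only 5 separate loci, had a region, 4 of 19 SOX genes did (0.299) and 2 of 13 T-box genes (0.353). Replicate 2 alone had HOX peaks, at 0.218 times its expected number. Families of ion channels and ligand-gated receptors, taken whole, ranged from well below 1 to about 1. GABA-A receptors had 0.255, ionotropic glutamate receptors 0.650, potassium channels 0.839 and voltage-gated calcium channels 1.14. Of the 82 regions of the calcium channel group, 17 were those of Cacna1c.

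**Figure D3:**
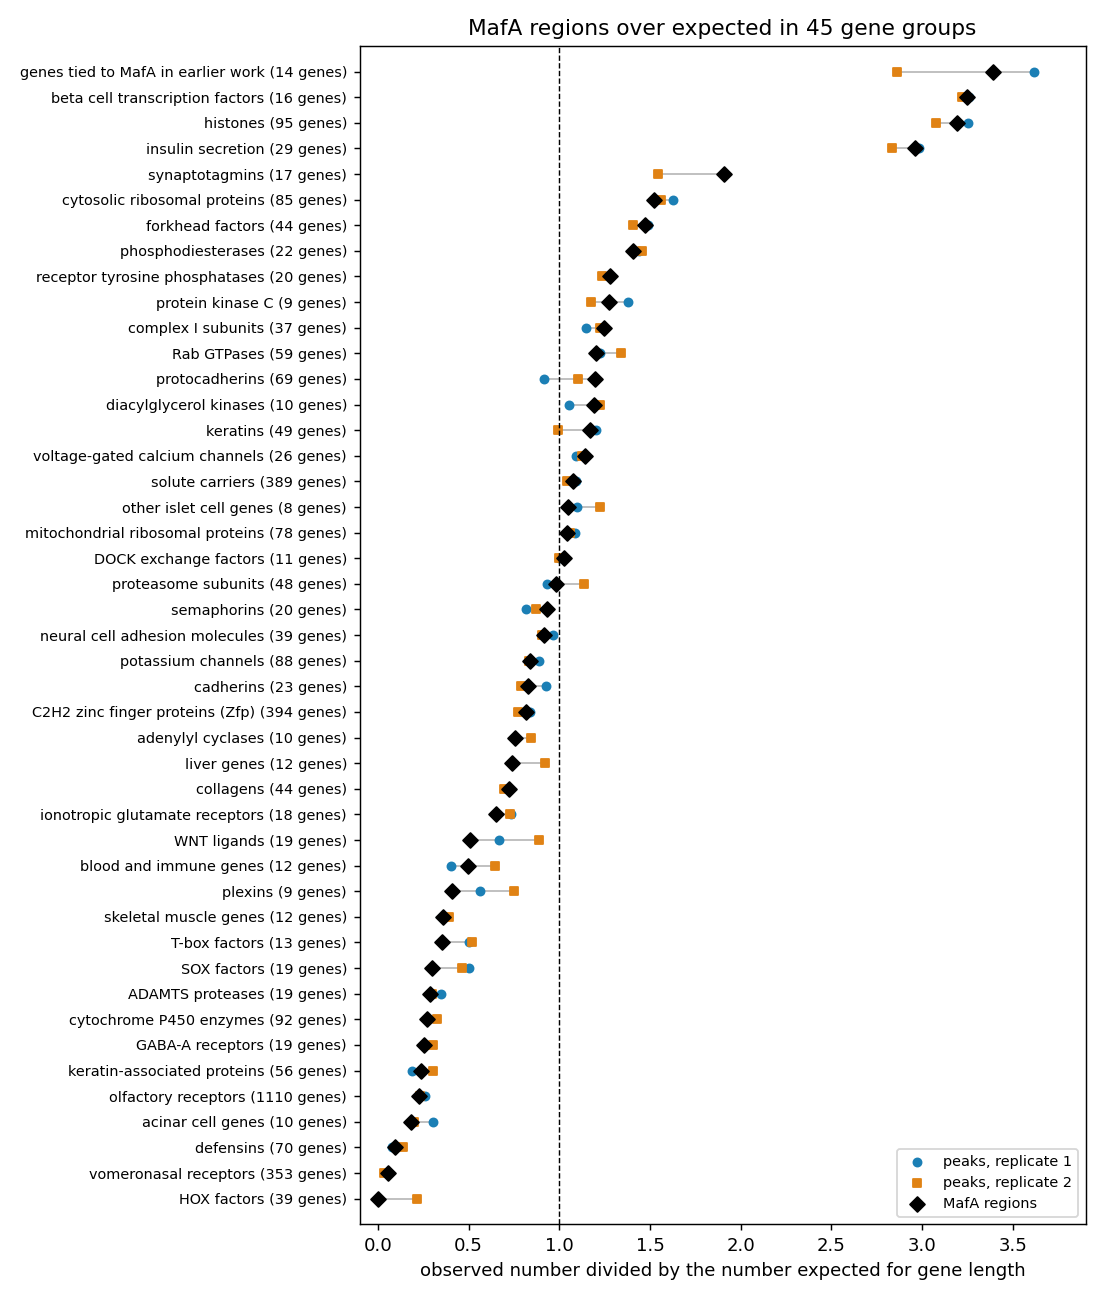
Observed over expected number for 45 of the 47 gene groups, with the number of genes in each: black diamonds for MafA regions, blue circles and orange squares for the peaks of replicates 1 and 2. The dashed line is 1, the level of all genes together, and the beta cell lists and histones lie furthest to its right at 2.96 to 3.39.

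Along the gene, MafA regions were densest around the start. For 17274 genes whose strand is in the promoter table, there were 22.8 regions per Mb in the 5 kb before the start and 22.2 in the first of 5 equal parts of the body. The other parts had 11.2 to 13.1, and the 5 kb after the end 16.3. At the 250 MafA-rich genes among them the density was high everywhere, from 48.8 to 87.2 per Mb, and the first part of the body (67.4) had 1.13 times the density of the second (59.7). Their level follows from how they were chosen. The first part had 1.70 times the second over all genes and 1.198 times at the 1864 genes of at least 100 kb.

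**Figure D4:**
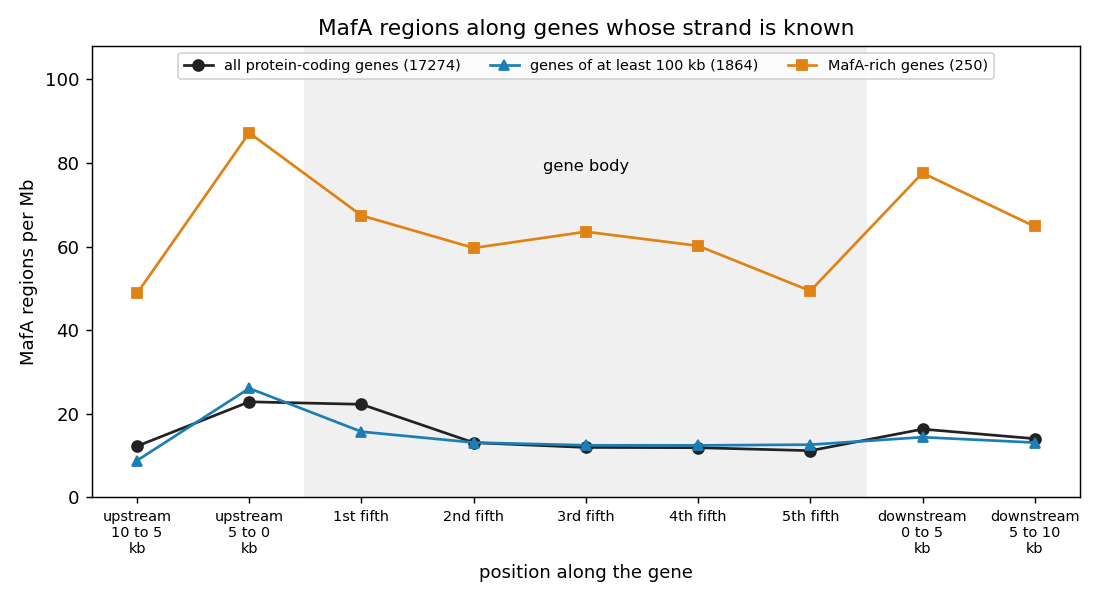
MafA regions per Mb in 9 bins along genes of known strand (5 kb bins outside the gene, 5 equal parts of the gene body on grey) for all such genes (black circles), genes of at least 100 kb (blue triangles) and MafA-rich genes (orange squares). All genes peak just before the start and in the first part of the body, while MafA-rich genes lie above them in every bin, with their highest value of 87.2 just before the start.

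Strong single regions occurred in the windows of genes with few. The 5 genes with exactly 1 region and the highest mean fold enrichment were Lrrfip2 (40.9 and 58.3), Ces1e (39.8 and 45.6), Rhcg (41.0 and 42.7), Cd177 (30.4 and 35.5) and Fam151a (27.9 and 36.0). At each, both values were far above the list medians of 5.03 and 4.82, which the choice by mean fold enrichment largely entails. Lrrfip2, a regulator of Toll-like receptor and Wnt signalling, had 1 region where 2.01 were expected. The 5 genes had 0.497 to 1.49 times the expected number. The regions of Ces1e, Rhcg and Cd177 lay outside the gene, 9457, 9543 and 6939 bp from it. Those of Ces1e, Cd177 and Fam151a were also in another gene's window.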

How the data were processed

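CUT&RUN libraries of MIN6 cells were described from the 2 MafA peak lists, each called on 1 library with MACS2 on GRCm38 (mm10), per the submitters' processing notes. The MACS2 version, control, aligner and treatment of duplicates are not given in the sources used here. In the deposited lists, fold enrichment is a ratio on a linear scale, taken at the summit, and the deposited significance columns hold −log10 of p and q, with a lowest −log10 q of 2.00. The deposited score column was not used as a measure. These 3 kinds of value are the authors' own.

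Regions, gene windows and expected numbers were computed with Python 3.11.15, numpy 2.4.6, pandas 2.3.3 and scipy 1.17.1, on chromosomes 1 to 19 and X. Gene positions were those of RefSeq for GRCm38.p6, the same build, and promoter and miRNA sequences from RefSeq tables of that build. Fragments at a summit were solved from fold enrichment and p as whole numbers, and left blank where more than 1 number fitted. Routines were tested on simulated data. Named genes were the 20 with the highest excess, the 10 with most regions (both without genes that share most of their regions with a higher one), the 10 with the lowest excess, the 3 beta cell lists, the leading member of every other group, and the 5 single-region genes of highest mean fold enrichment. Members and lists were chosen with earlier results of these data known. Some items are not reported here. No test was run, since there is 1 group of 2 libraries. Alternatives covered the peak threshold, overlap, window, assignment, length correction, chromosomes and each replicate alone.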

Additional observations from a re-analysis of the deposited data

How the results depend on the processing

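The results were recomputed under 14 alternatives. Counting only the 16000 strongest peaks of each list gave 5015 genes with a region, 65.2% of regions assigned, 137 MafA-rich genes (99 of them among the 320) and 45 MafA-poor genes (29 among the 183), a median of 7.05 times expected over the 20 leading genes (9.44 as reported) and 10 groups at 1.5 times expected or more (6 as reported). With 50 kb either side there were 14469 genes, 82.0% assigned, 1047 MafA-rich (205 shared) and 446 MafA-poor genes (150 shared) and a median of 5.88. The share assigned was 58.9% with the gene body only and 65.6% with 5 kb either side. The median of the leading genes was 10.9 with 5 kb, 8.01 with regions within 1 kb merged and 7.88 with an expected number proportional to length. Each replicate alone gave 432 to 507 MafA-rich and 219 to 370 MafA-poor genes and a median of 7.05 to 8.87. Iqschfp fell to 0.139 times expected when regions counted only for the nearest gene, since all its regions lie at other genes too. Leaving olfactory and vomeronasal receptor genes out of the expected number, chosen after seeing the data, kept all 320 MafA-rich genes. All 320 had at least 0.455 regions expected, so this count says little about the short genes that the change concerns most. The same setting gave a median of 8.26 times expected over the 20 leading genes and 5 groups at 1.5 times expected or more. For the changes other than that of Iqschfp the cause was not tested. Of the 320 genes, 55 were MafA-rich under every alternative (among them Abcc8, Slc2a2, Mtss1 and Gng12), and 34 of 47 groups stayed on the same side of 1. No paired analysis was possible because the libraries form 1 group and no result comes from a test. A median of 24 and 46 fragments at the summit limits which weak regions could be called in both lists.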

Other observations

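Noncoding genes, which the gene counts leave out, carried MafA regions too. In windows of the same kind, 4673 of 12697 lncRNA genes (36.8%) and 361 of 1228 miRNA genes (29.4%) had a region. The lncRNA genes with most regions were Gm12610 with 15 and 1700112D23Rik with 11, the latter overlapping Slc2a2. Among miRNA genes, 867 had none, 262 had 1, 76 had 2, 20 had 3 and 3 had 4. Those with 4 were Mir375, Mir344i and Mir6935. Mir375 encodes a miRNA known to be abundant in islets, and Mir7-2, another islet miRNA gene, had 3. The sequences of their 5p arms in the RefSeq table are shown because both genes stood among the 23 with at least 3 regions, with the seed in capitals. The other arm of the first, mmu-miR-375-3p, is the one known from islets and is not printed.
mmu-miR-375-5p: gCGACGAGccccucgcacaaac
mmu-miR-7a-5p: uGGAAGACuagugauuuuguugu

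At Mir375 the regions lay 481, 685, 3503 and 6617 bp from the hairpin. Their fold enrichments in replicates 1 and 2 were 9.38 and 10.0, 7.21 and 9.31, 5.73 and 4.81, and 17.0 and 18.4, so the strongest was the most distant. At Mir7-2 the region nearest to the hairpin, 1128 bp away, had 5.95 and 7.66, and the strongest, 1701 bp away, 8.01 and 9.72. No length correction was made for these short genes.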
